A study of Mus musculus with 12 samples.

Results

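The liver converts the amino acid tryptophan into nicotinamide adenine dinucleotide (NAD) through kynurenine, and the genes of this route are described here in germ-free and conventionalized mice. The route was represented by 10 genes of the 41128 in the deposited table, taken by gene symbol: Tdo2, Ido2, Afmid, Kmo, Kynu, Aadat, Haao, Acmsd, Qprt and Nadsyn1. All 10 were found and all 10 passed the filter on low values, a mean deposited value of at least 10.

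Germ-free (GF) C57BL/6 mice stayed in sterile isolators until they were killed at 6 weeks of age. Conventionalized (CV) mice were their littermates, which left the isolators at weaning, at about day 21, and spent 3 weeks in cages with soiled bedding from other parts of the animal facility. Each condition held 3 mice labelled male and 3 labelled female, with 1 liver RNA sequencing library per mouse, and the labels name no mutation, drug or diet. The microbes that the CV mice acquired were not described, and the change of microbes and the change from isolator to cage cannot be told apart.

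Tryptophan is opened by the dioxygenases TDO and IDO, and the formyl group is then removed by the formamidase encoded by Afmid. Kynurenine is next hydroxylated by KMO, cleaved by KYNU or turned into kynurenic acid by aminotransferases such as AADAT. HAAO opens the ring of hydroxyanthranilate to a semialdehyde, which either closes to quinolinate, the substrate of QPRT on the way to NAD, or is decarboxylated by ACMSD and leaves the route toward acetyl-CoA. The liver is the main site of this synthesis.

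Recovered reads per library ranged from 5993619 to 15290835. A set of 9 abundant loci, among them both mitochondrial ribosomal RNA genes and Lars2, took 42.1 to 69.8% of the reads in GF libraries and 5.43 to 22.0% in CV libraries. No label gives a batch, and this difference in composition cannot be told apart from the condition. In the library labelled CV male 3, 4 Y-linked genes summed to 0 reads, against 796 to 1314 in the other libraries labelled male, and its Xist value was 2382. It was kept under its label. Without it the same number of genes of the route was called in males, 4 of 10, while Tdo2 (0.91, adjusted p = 0.0810, limma), Aadat (0.89, 0.0680) and Qprt (1.07, 0.0552) still did not pass. The hepatocyte marker Alb had values of 47020 to 278958, and no kidney proximal tubule marker had more than 11 reads in any library.

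Qprt stands where the route commits to NAD, and Haao and Tdo2 had the highest levels of the 10 genes, so the promoters of these 3 genes are shown. The sequences run from 250 bases before to 50 bases after the RefSeq gene start on build GRCm38.p6. They lie at chr7:127121980-127122279 on the minus strand for Qprt, at chr17:83846741-83847040 on the minus strand for Haao and at chr3:81975679-81975978 on the minus strand for Tdo2. Capitals mark the nuclear receptor half-site AGGTCA, here in its reverse orientation.
Qprt: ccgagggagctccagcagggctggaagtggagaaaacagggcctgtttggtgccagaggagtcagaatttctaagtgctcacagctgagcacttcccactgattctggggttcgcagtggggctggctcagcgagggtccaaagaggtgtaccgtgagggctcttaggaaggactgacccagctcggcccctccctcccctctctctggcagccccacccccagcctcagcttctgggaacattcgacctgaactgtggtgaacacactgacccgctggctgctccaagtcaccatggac
Haao: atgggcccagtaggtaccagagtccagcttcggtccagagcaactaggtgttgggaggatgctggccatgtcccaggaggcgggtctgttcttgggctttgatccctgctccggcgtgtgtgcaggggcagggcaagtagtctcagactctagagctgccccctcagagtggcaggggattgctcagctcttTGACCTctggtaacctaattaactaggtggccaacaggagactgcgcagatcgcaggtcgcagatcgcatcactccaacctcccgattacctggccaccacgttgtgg
Tdo2: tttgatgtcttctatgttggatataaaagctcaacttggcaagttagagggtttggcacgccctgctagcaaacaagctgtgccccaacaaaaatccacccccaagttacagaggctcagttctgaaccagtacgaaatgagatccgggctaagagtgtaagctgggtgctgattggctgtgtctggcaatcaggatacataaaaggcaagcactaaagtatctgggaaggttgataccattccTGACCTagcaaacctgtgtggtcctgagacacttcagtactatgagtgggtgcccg

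RefSeq promoters were matched for 8 of the 10 genes, and those of Ido2 and Kynu were not matched. Searched on both strands, AGGTCA was found in the windows shown for Haao and Tdo2, and in 16.3% of all 32817 promoters of the same length. Its first base lay 58 bases before the RefSeq gene start in Haao and 6 bases before it in Tdo2. The GENCODE genes start further upstream, at 83847963 for Haao and at 81976202 for Tdo2, so both windows lie inside the GENCODE genes. The Qprt window above holds no match, which says only that these letters are not in that window. The TATA box letters TATAAA were matched in Tdo2 (13.6% of all promoters), near the end of the window that is farthest from the gene start. The CCAAT box was matched in Tdo2 and Aadat (37.4%), and the GC box GGGCGG in Afmid, Aadat and Nadsyn1 (35.6%). The HNF1 half-site GTTAAT was matched in Haao (7.1%) and the steroid receptor half-site AGAACA in Kmo and Haao (19.0%). The share of G and C was highest in the Nadsyn1 promoter, at 65.7%.

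In both sexes the CV livers held less Acmsd and more Ido2, Afmid and Haao than the GF livers. In females Tdo2, Aadat and Qprt also rose, the last by 4.71-fold. These genes also passed over both sexes, and no gene of the route passed the test of a different condition effect in males and females. Kmo, Kynu and Nadsyn1 did not pass the test in either sex or over both. Across 24 alternative settings without a composition covariate, the Acmsd call held in each sex in all 24. The male call held in 13 for Ido2 and in 18 for Haao. The female call held in 11 for Afmid and in 19 for Tdo2. With library composition as a covariate, 0 of the 10 genes passed. Values are the deposited read counts divided by the size factor of the library, called normalised values below. Log2 changes are CV minus GF on log2(value + 1), given ± the standard error of the fit, with adjusted p-values from limma over 11782 genes. In bulk liver, fewer cells of a type and less RNA per cell cannot be told apart.

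In males 4 of the 10 genes passed an adjusted p of 0.05, 3 higher and 1 lower in CV, where 29.5% of all tested genes passed, 14.1% higher and 15.4% lower. Among females 7 of 10 passed, 6 higher and 1 lower, against a background of 55.8%, with 29.8% higher and 26.0% lower. Over both sexes the same 7 genes passed, against 61.1% of all genes (32.3% higher and 28.7% lower). The genes higher in each sex taken separately were Ido2, Afmid and Haao, 3 of 10 against 13.0% of all genes, and the gene lower in each was Acmsd, 1 of 10 against 14.1%. The median log2 change of the 10 genes was 0.73 in males, 1.00 in females and 0.99 over both, and that of all tested genes was 0.06, 0.08 and 0.07. Among genes with a mean value of at least 50, which all 10 genes reached, the median was 0.15, 0.31 and 0.23. Of these 8255 genes, 1599 were called higher and 1372 lower in males, and 3181 and 2029 in females. Over both sexes 3342 were called higher and 2251 lower, so calls of higher genes were more frequent than among all tested genes.

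**Figure D1:**
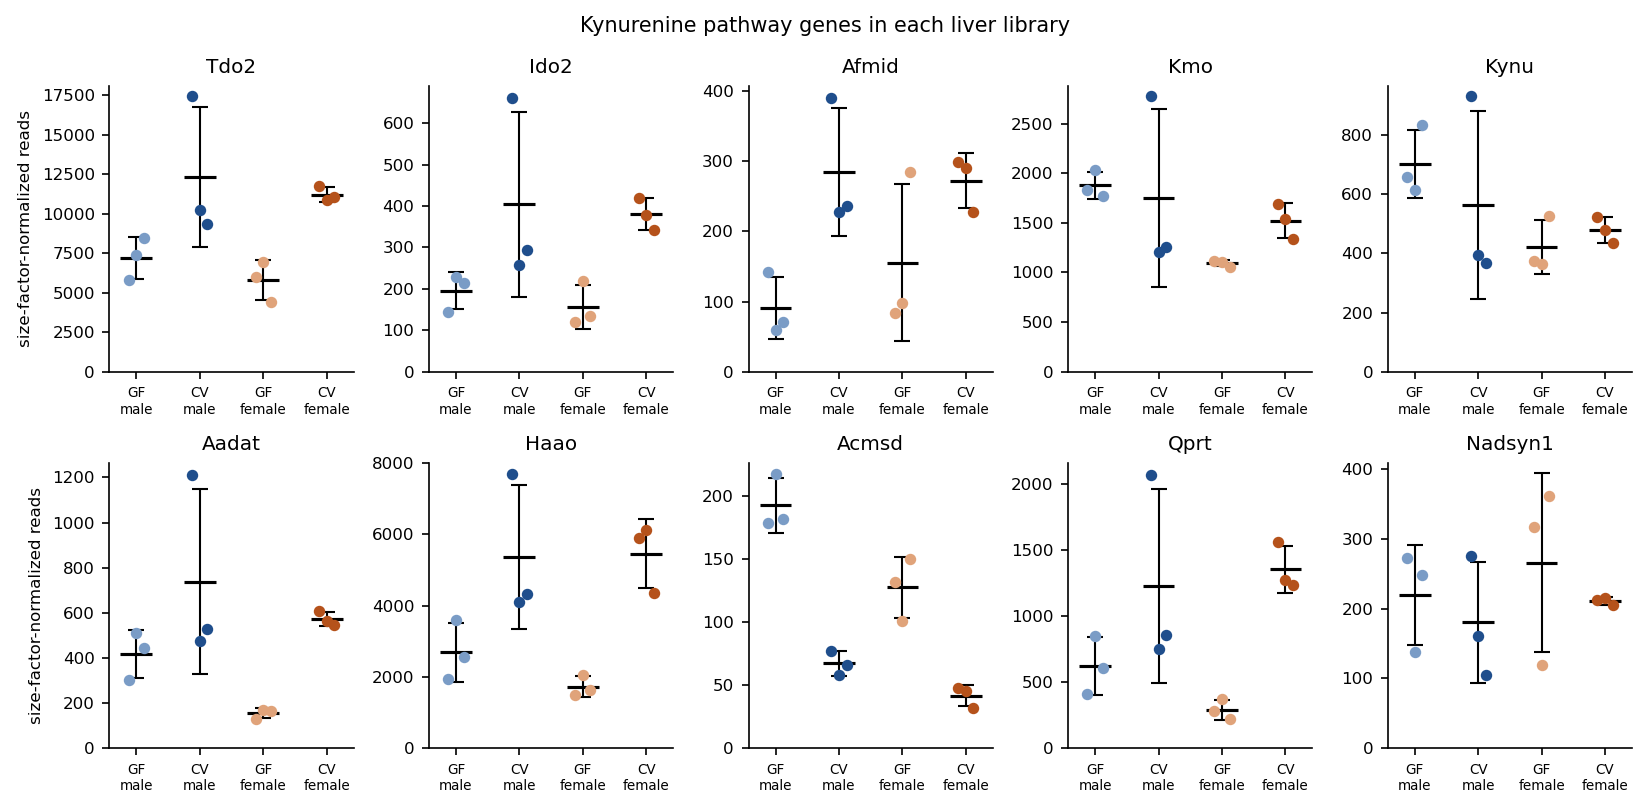
Normalised values (reads divided by the library's size factor, linear axes from 0) of the 10 pathway genes in GF and CV livers of each labelled sex. Each point is 1 library, and black lines give the mean and SD of 3 libraries. All Acmsd values in CV livers, 31.9 to 77.0, sit below all those in GF livers, 101 to 217, and the highest CV male point of every panel is CV male 1.

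Whether libraries of the conditions overlap was then counted for each gene. In males every CV library lay above every GF library for 4 of the 10 genes (Tdo2, Ido2, Afmid and Haao), as it did for 22.0% of all tested genes, and below for 1 (Acmsd; 21.1% of all). In females this held for 6 genes above (Tdo2, Ido2, Kmo, Aadat, Haao and Qprt; 34.0% of all) and for 1 below (again Acmsd; 31.0%). Tdo2, Ido2 and Haao lay above in both sexes, 3 of 10 against 18.6% of all genes, and Acmsd lay below in both, 1 of 10 against 17.9%. CV male 1 held the highest value of the CV males for all 10 genes, and its share of reads in the 9 abundant loci was 5.43%, against 21.5 and 22.0% in CV males 2 and 3. The part of that composition in the spread of the CV males was not tested.

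Acmsd (ENSMUSG00000026348, chr1:127729413-127767978, plus strand, GRCm38) encodes the decarboxylase that draws the semialdehyde away from NAD synthesis. Its normalised values were 178, 217 and 181 in GF males and 77.0, 58.0 and 66.3 in CV males. In females they were 131, 101 and 150 in GF and 47.5, 45.0 and 31.9 in CV. The conditions did not overlap in either sex. Acmsd fell by 1.51 ± 0.25 on the log2 scale in males (adjusted p = 0.00119, limma, lower in 3 of 3 CV libraries) and by 1.60 ± 0.25 in females (adjusted p = 9.05e-05), and CV levels were 0.352-fold and 0.331-fold those of GF. Between 38 and 199 reads per library stood behind these values. An antisense gene, 2900009J06Rik, shares 94 exon bases with Acmsd, and its values did not exceed 8.50. The call held in each sex in all 24 settings without a composition covariate, with changes from -1.20 to -1.81 in males and from -0.80 to -2.22 in females.

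Qprt (ENSMUSG00000030674, chr7:127107114-127122226, minus strand) encodes quinolinate phosphoribosyltransferase, which commits quinolinate to NAD. In GF females its normalised values were 279, 372 and 222, and in CV females 1557, 1271 and 1232. The groups lay far apart, and the log2 change was 2.24 ± 0.35 (adjusted p = 9.39e-05, limma). In males the values were 407, 846 and 608 in GF and 2069, 750 and 860 in CV. The male groups overlapped, since CV male 2 lay below GF male 2, and the log2 change of 0.89 ± 0.35 did not pass the test (adjusted p = 0.0691, limma). It passed without GF male 2 (1.14, adjusted p = 0.0330, limma), without CV male 2 (1.17, 0.0331), scaled to all reads (1.20, 0.0151) and by DESeq2 (0.98, 0.0340), and fell to 0.43 (0.309) without CV male 1. Over both sexes Qprt rose by 1.56 ± 0.25 (adjusted p = 6.58e-05, limma).

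Haao (ENSMUSG00000000673, chr17:83831156-83847963, minus strand) encodes the dioxygenase that makes the semialdehyde for which ACMSD and quinolinate formation compete. GF males had normalised values of 1944, 3587 and 2557, and CV males 7703, 4098 and 4317. In females the values were 1502, 2053 and 1633 in GF and 5907, 6118 and 4346 in CV. Every CV library lay above every GF library of its sex. Haao rose by 0.98 ± 0.32 in males (adjusted p = 0.0295, limma) and by 1.65 ± 0.32 in females (adjusted p = 0.000409). The male call was lost without GF male 1 (0.76, adjusted p = 0.140, limma), GF male 3 (0.96, 0.0850) or CV male 1 (0.69, 0.101), scaled to the reads outside the 9 loci (0.67, 0.0548) and with no filter (0.0646), and it held without CV male 3 (1.10, 0.0334).

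Tdo2 (ENSMUSG00000028011, chr3:81957090-81976202, minus strand) encodes the tryptophan dioxygenase of hepatocytes and was the gene of the route with the highest level. Its normalised values were 5781, 7361 and 8458 in GF males and 17424, 10223 and 9374 in CV males. In females they were 5991, 6953 and 4439 in GF and 11732, 10873 and 11026 in CV. Neither sex showed overlap of the conditions. The rise in females was 0.98 ± 0.33 (adjusted p = 0.0184, limma), and it was lost without GF female 3 (0.80, 0.0759), without CV female 1 (0.94, 0.0562), with no filter on low values (0.0740), and scaled to the reads outside the 9 loci, where it was 0.34 (0.247). In males the log2 change of 0.74 ± 0.33 did not pass (adjusted p = 0.0987, limma), although DESeq2 on the recovered reads called it (0.78, adjusted p = 0.0184), as did limma with libraries scaled to all reads (1.05, 0.0208).

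Ido2 (ENSMUSG00000031549, chr8:24531892-24576333, minus strand) encodes an indoleamine dioxygenase of the same step. GF males had 144, 228 and 214 and CV males 661, 258 and 293 normalised reads. GF females had 119, 218 and 134 and CV females 420, 379 and 343. The conditions did not overlap in either sex, and Ido2 rose by 0.94 ± 0.33 in males (adjusted p = 0.0429, limma) and by 1.32 ± 0.33 in females (adjusted p = 0.00325). The male call lay close to the threshold: it was lost without GF male 1 (0.74, adjusted p = 0.177, limma), GF male 3 (1.02, 0.0772), CV male 1 (0.52, 0.199) or any of the CV females (0.94, 0.0556 to 0.0587). It was also lost scaled to the reads outside the 9 loci (0.63, adjusted p = 0.107, limma), with TMM factors (0.88, 0.0532), with the trend on length and GC content removed (0.78, 0.0689) and with no filter (0.0735). It held without CV male 3 (1.10, 0.0373).

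Afmid (ENSMUSG00000017718, chr11:117825924-117839908, plus strand) encodes the arylformamidase that releases kynurenine. Normalised values were 141, 59.9 and 70.9 in GF males against 389, 227 and 235 in CV males, with no overlap. In females they were 83.0, 98.4 and 284 in GF and 298, 290 and 227 in CV, and GF female 3 lay within the CV range. Afmid rose by 1.69 ± 0.41 in males (adjusted p = 0.00735, limma) and by 1.02 ± 0.41 in females (adjusted p = 0.0424). The female call was lost without GF male 3 (1.02, adjusted p = 0.0514, limma), GF female 1 (0.69, 0.202), GF female 2 (0.81, 0.134), CV female 1 (0.95, 0.107), CV female 2 (0.97, 0.103) or CV female 3 (1.14, 0.0557), and edgeR (0.77, 0.114) and DESeq2 (0.81, 0.118) did not call it. It was 0.39 (adjusted p = 0.504, limma) scaled to the reads outside the 9 loci and 0.63 (0.191) with the trend on length and GC content removed, and it was also lost with TMM factors (0.94, 0.0585) and with no filter (0.0751). Afmid shares 1649 exon bases with other genes, among them Tk1 on the opposite strand, whose value was also highest in GF female 3, at 215. Gm20708, on the same strand, also overlaps Afmid and had a value of 0 in every library. No source used here states whether counting used the strand, and strand would not separate Afmid from Gm20708. The Afmid values are therefore uncertain.

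Aadat (ENSMUSG00000057228, chr8:60505932-60545677, plus strand) encodes an aminotransferase that makes kynurenic acid. Normalised values in females were 130, 170 and 165 in GF and 607, 564 and 545 in CV, with no overlap. The rise was 1.89 ± 0.31 (adjusted p = 0.000138, limma). Males had 301, 510 and 445 in GF and 1212, 474 and 530 in CV. The male groups overlapped and the change of 0.72 ± 0.31 did not pass (adjusted p = 0.0940, limma). It passed without CV male 2 (0.97, 0.0421) and scaled to all reads (1.03, 0.0232), and was 0.29 (0.405) without CV male 1.

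Kmo and Kynu, the hydroxylase and the hydrolase on the way to hydroxyanthranilate, did not pass the test. Kmo (ENSMUSG00000039783, chr1:175620381-175662116, plus strand) had normalised values of 1828, 2032 and 1774 in GF males, 2781, 1208 and 1260 in CV males, 1111, 1109 and 1056 in GF females and 1689, 1540 and 1334 in CV females. Among males GF lay inside the CV range, and among females every CV library lay above every GF library. Its log2 changes were -0.21 (95% interval -0.82 to 0.40) in males and 0.47 (-0.14 to 1.08) in females, the latter passing without CV male 1 (0.47, adjusted p = 0.0383, limma) and scaled to all reads (1.28, 0.00160).

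Kynu (ENSMUSG00000026866, chr2:43555329-43682715, plus strand) ranged from 614 to 833 in GF males, from 367 to 932 in CV males, from 364 to 525 in GF females and from 437 to 524 in CV females. Both pairs of ranges overlapped. Its log2 changes were -0.44 (95% interval -1.09 to 0.21) and 0.20 (-0.45 to 0.86), and without CV male 1 it was called lower in males (-0.87, adjusted p = 0.0208, limma), while scaled to all reads it was called higher in females (1.01, 0.0178). Nadsyn1 (ENSMUSG00000031090, chr7:143795584-143822849, minus strand), the NAD synthetase of the last step, ranged from 138 to 272 in GF males, 104 to 275 in CV males, 120 to 360 in GF females and 205 to 216 in CV females. The CV ranges fell within the GF range in females and spanned beyond it in males. Its log2 changes were -0.34 (-1.18 to 0.51) and -0.18 (-1.03 to 0.66), and changes within these intervals were not excluded.

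**Figure D2:**
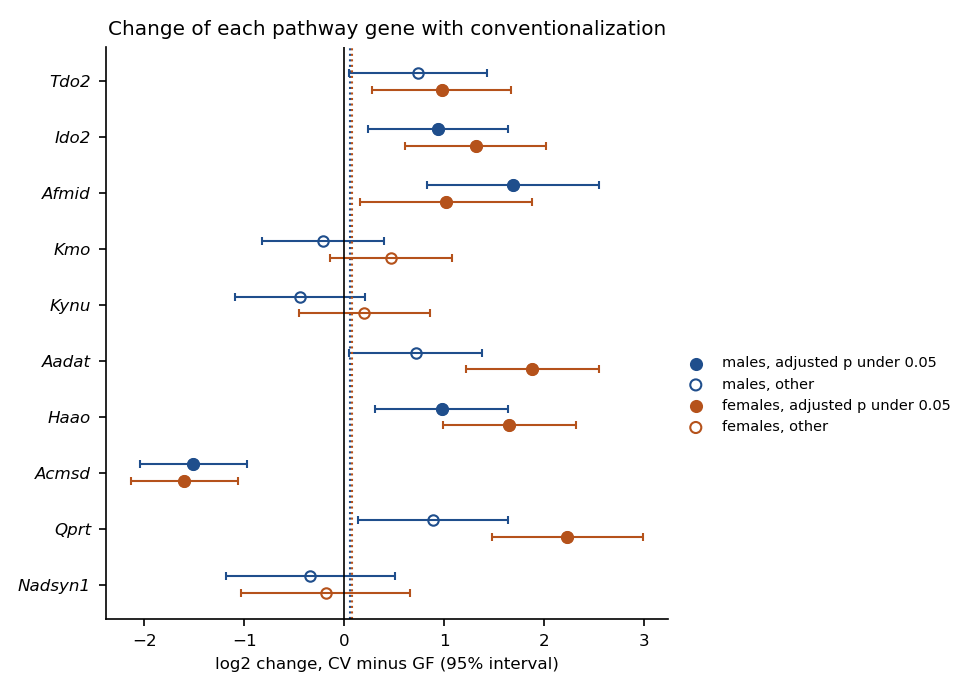
Log2 change (CV minus GF, x axis) of each pathway gene in males and females, with 95% intervals of the limma fit over 12 libraries. Filled points have an adjusted p under 0.05 over all tested genes, and dotted lines mark the median of all tested genes (0.06 and 0.08). Acmsd lies at -1.51 and -1.60 and is the only gene of the 10 that was called lower.

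The condition effect was also fitted with library composition as a covariate. With the share of reads in the 9 abundant loci as a covariate, 95.3% of whose variance lay between the groups, 0 of the 10 genes passed limma over both sexes and 6 of them changed direction, while standard errors grew by 3.25 to 4.44 times. At an unadjusted p of 0.05 that fit called 1046 of the 11782 genes, and 7 passed after adjustment. With the mitochondrial ribosomal RNA share instead, 0 of the 10 genes passed limma as well (1985 of all genes at an unadjusted p of 0.05) and 6 changed direction. Acmsd stayed lower in CV under both, at -2.24 (adjusted p = 0.407, limma) and -2.39 (0.174).

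Levels were set side by side per kilobase of exon. Tdo2 had the highest mean in every group (1855 normalised reads per kilobase in GF males, 3180 in CV males, 1493 in GF females and 2889 in CV females), followed by Haao (576, 1148, 369 and 1166). Their libraries did not overlap in any group. Haao and Kmo overlapped in GF males, where Kmo, at 398, followed Haao. Qprt stood above Kmo in CV livers, at 464 against 370 in males, where the libraries overlapped, and at 512 against 322 in females, where they did not. Acmsd had a mean of 67.9 in GF males, at rank 7 of the 10 genes, and 45.0 in GF females, at rank 8, where it overlapped with Afmid. It was the lowest of the route in CV males, at 23.7, and in CV females, at 14.7, and overlapped with no other gene there. In GF males each gene overlapped with the next in the order Acmsd, Nadsyn1, Ido2 and Afmid. Every Acmsd library there (62.9 to 76.6) still lay above every Ido2 library (39.6 to 62.6) and every Afmid library (16.9 to 40.0). Nadsyn1 (41.9 to 82.3) lay above Afmid as well.

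Ratios of genes within a library do not depend on the scaling of that library. Whether they depend on its composition, which cannot be told apart from the condition, was not tested. Of 5 ratios taken along the route, 3 differed between conditions and 2 did not pass. How many ratios of other gene pairs differ was not computed, and 61.1% of all single genes were called over both sexes. Acmsd is part of both Acmsd to Qprt and Haao to Acmsd, so these are not separate results. The ratio of Acmsd to Qprt, the exit against the entry to NAD, was 0.257 to 0.674 in the 6 GF libraries and 0.0267 to 0.0786 in the 6 CV libraries. It was 8.66-fold lower in CV (log2 difference -3.11; exact two-sided permutation test with conditions exchanged within sex, p = 0.005, the smallest that 400 relabellings allow, adjusted over 5 ratios 0.00833). The log2 difference was -2.40 in males and -3.83 in females, with all 6 CV libraries below all GF libraries.

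Haao to Acmsd was 10.9 to 20.1 in GF and 64.1 to 133 in CV, a 7.30-fold higher ratio (log2 difference 2.87, exact permutation p = 0.005, adjusted 0.00833). Aadat to Kmo, the aminotransferase against the hydroxylase of kynurenine, was 0.118 to 0.251 in GF and 0.360 to 0.436 in CV, 2.25-fold higher (1.17, exact permutation p = 0.005, adjusted 0.00833). For both, no CV library overlapped with a GF library of its sex. Kmo to Kynu (log2 difference 0.25, exact permutation p = 0.085, adjusted 0.085) and Tdo2 to Ido2 (-0.27, p = 0.075, adjusted 0.085) did not pass. Within 1 sex 3 against 3 libraries cannot reach a p below 0.1, so no test was made there. Such a ratio shows unequal change of its genes and not which of them changed.

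**Figure D3:**
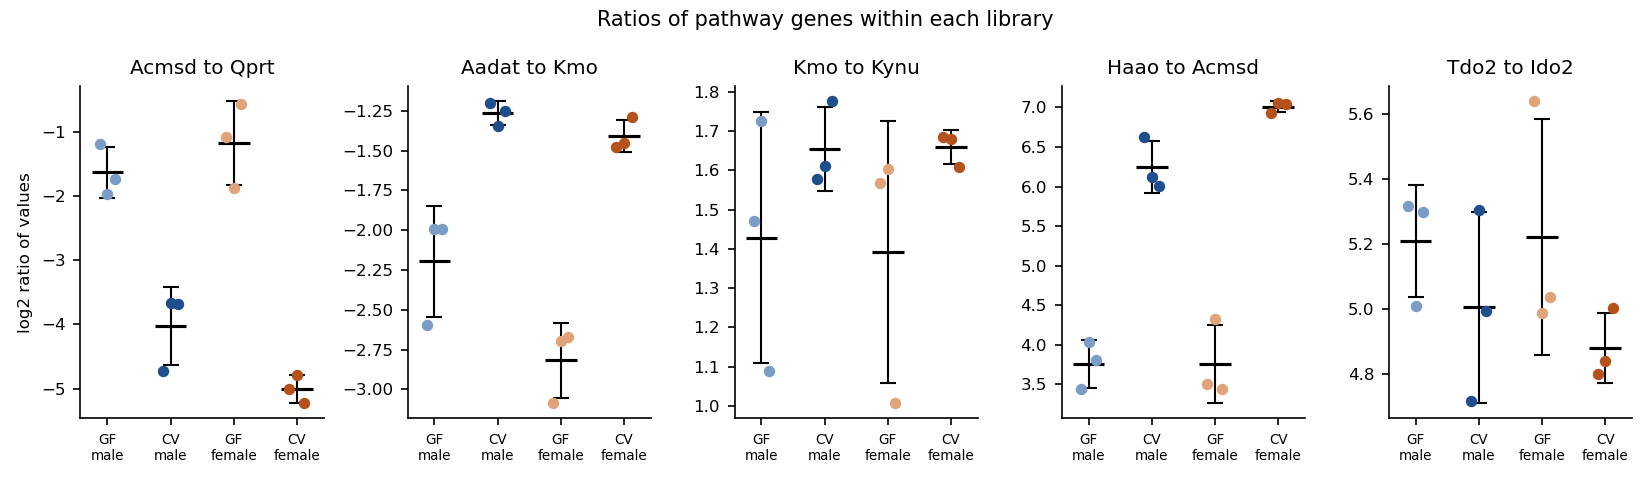
Log2 ratio of the normalised values of gene pairs within each library (y axis, a different range in each panel), for GF and CV livers of each labelled sex. Points are libraries and black lines the mean and SD of 3. Acmsd to Qprt ran from -1.96 to -0.57 in GF and from -5.23 to -3.67 in CV.

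The scaling of the libraries moved the median of all genes, which was 0.06 in males and 0.08 in females as deposited, 0.37 and 0.86 when libraries were scaled to all reads, and -0.24 and -0.54 when scaled to the reads outside the 9 loci. The split of calls moved with it: 1660 genes were higher and 1814 lower in males as deposited, 2825 and 788 when scaled to all reads, and 850 and 2263 when scaled outside the loci. In females the splits were 3512 and 3060, 5832 and 1119, and 1824 and 4683. The 7 genes called over both sexes kept their direction in each sex under these scalings and under TMM factors. Scaled outside the loci, Tdo2 was no longer called over both sexes (0.39, adjusted p = 0.0658, limma) and Kynu was called lower (-0.59, 0.0350). Kmo changed direction between scalings, from 0.69 over both sexes with all reads (adjusted p = 0.0104, limma) to -0.34 outside the loci (0.111), as did Kynu (0.44 to -0.59) and Nadsyn1 (0.30 to -0.73).

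**Figure D4:**
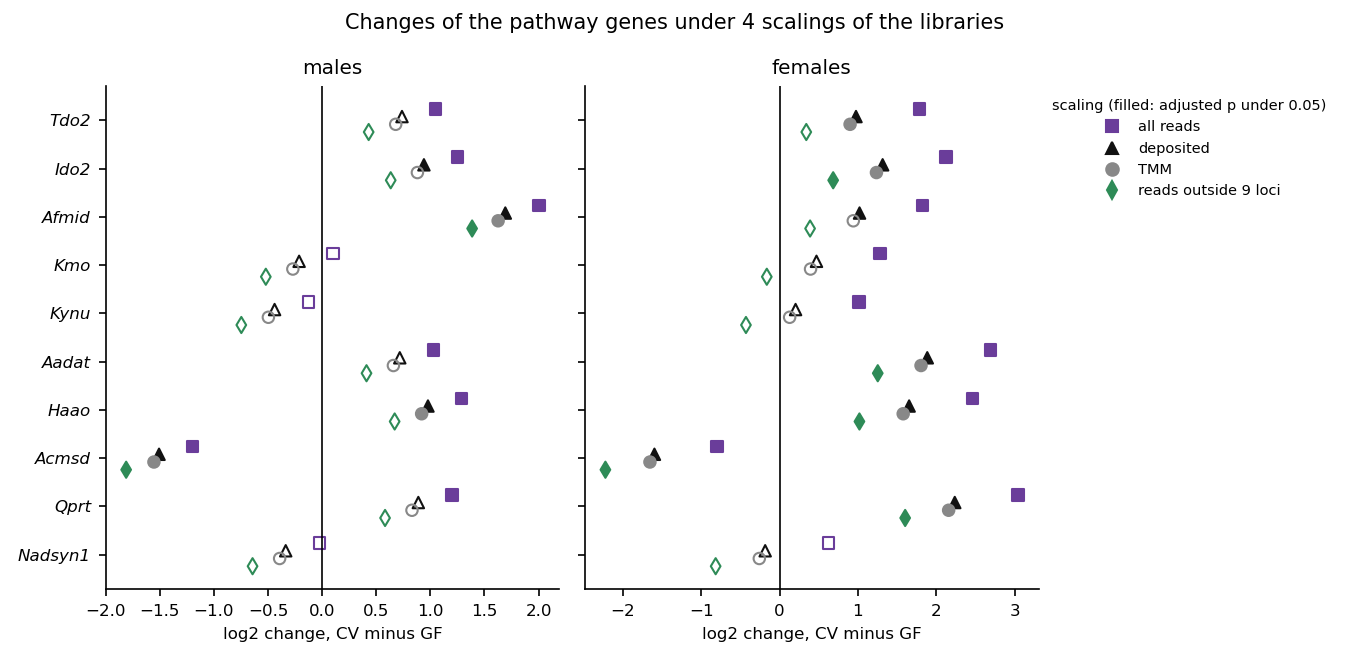
Log2 change (CV minus GF, x axis) of each pathway gene in males and in females when libraries were scaled to all reads, by the deposited size factors, by TMM factors, or to the reads outside 9 abundant loci. Filled symbols have an adjusted p under 0.05. Acmsd is filled and negative in every case, from -0.80 to -2.22 in females.

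Sex was compared next. No gene of the route passed the test of a different condition effect in males and females (limma), and 0 of all 11782 genes did, against 11.7% at an unadjusted p of 0.05. Qprt (male minus female effect -1.35 ± 0.50, limma adjusted p = 0.417) and Aadat (-1.17 ± 0.44, limma adjusted p = 0.417) were the members below an unadjusted 0.05. Both were called without CV male 1 (-1.80 and -1.59, limma adjusted p = 0.0401 and 0.0335), and 291 genes then passed in all. edgeR called 0 genes and DESeq2 24, none of them of the route. DESeq2 gave no adjusted p for Aadat or Nadsyn1 in this comparison, so it could not call them.

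In GF livers Aadat was higher in males than in females by 1.40 ± 0.31 (adjusted p = 0.0344, limma), the 1 gene of 10 that passed, against 1.63% of all genes (1.23% higher and 0.399% lower). It was not called without GF male 2 (1.24, adjusted p = 0.189, limma), GF male 3 (1.34, 0.136), GF female 1 (1.28, 0.130), GF female 3 (1.45, 0.0803) or any CV female (1.40, 0.0548 to 0.0588). All GF males lay above all GF females for 5 of the 10 genes (Kmo, Kynu, Aadat, Acmsd and Qprt), as for 10.2% of all genes, and 0 of the 10 had all GF males below (8.46% of all). The 9 abundant loci took 42.1 to 52.1% of the reads in GF males and 58.5 to 69.8% in GF females. Scaled to the reads outside these loci, Aadat was 1.08 (adjusted p = 0.0759, limma) and 0 of the 10 genes passed. Scaled to all reads, 4 passed. The part of this composition in the differences between the sexes was not tested. In CV livers 0 of 10 genes passed, against 0.0594% of all genes, or 7 genes, 0.0509% higher and 0.00849% lower in males (601 genes, or 5.10%, at an unadjusted p of 0.05). Without CV male 3, the library with no Y-linked reads, 77 genes passed there, and 0 of the route. With the replicate number as a block 24 genes passed there, again 0 of the route. Acmsd alone of the 10 lay above in every CV male (58.0 to 77.0) against every CV female (31.9 to 47.5), as did 6.57% of all genes (4.36% lay below), with a log2 difference of 0.69 ± 0.25 that did not pass (adjusted p = 0.845, limma). CV male 3 had an Acmsd value of 66.3.

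Neighbouring pathways were described with 7 other lists, whose counts over both sexes stand against 32.3% of all tested genes called higher and 28.7% called lower. Of the glutarate branch, which takes the product of ACMSD to acetyl-CoA, 8 of 10 genes were higher and 0 lower over both sexes, with a median of 1.04. In this list Echs1, the enoyl-CoA hydratase, rose from 481 ± 96.5 to 1514 ± 538 in males and from 358 ± 51.9 to 1800 ± 38.7 in females (mean normalised value ± SD, n = 3; limma log2 change over both 1.98 ± 0.19). Hadh rose by 1.84 ± 0.21 and Acat1, the acetoacetyl-CoA thiolase, by 2.03 ± 0.25, both also called in each sex by limma. Echs1, Hadh and Acat1 also serve fatty acid and ketone body metabolism.

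Of the genes that salvage NAD from nicotinamide, nicotinate and ribosides, 8 of 11 were tested, and 7 were higher and 1 lower over both sexes (median 0.67). None was called in the same direction in both sexes. Nampt, the rate-limiting enzyme of salvage and named here after its values were seen, was called in males (0.73 ± 0.26, adjusted p = 0.0416, limma) and not in females (0.51 ± 0.26, 0.0981), and the difference between the sexes did not pass (0.22 ± 0.36, adjusted p = 0.795, limma). Of 13 tested genes of NAD consumption and nicotinamide clearance, 5 were higher and 5 lower (median -0.15).

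Flavins are cofactors of the route, and the riboflavin kinase Rfk rose by 1.07 ± 0.22 over both sexes (limma) and was also called in each sex. Of 7 genes of tryptophan uptake and charging, 2 were higher and 2 lower. Slc3a2, the heavy chain of amino acid exchangers, rose by 1.17 ± 0.18 and the amino acid transporter Slc38a2 fell by 1.61 ± 0.20. On the side branches 2 of 5 tested genes were higher and 1 lower, with Got2, a mitochondrial aminotransferase, up by 1.67 ± 0.22. Ido1 and Tph1 had 0 reads in every library, each of which allows up to 3 reads.

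Among other amino acid routes, 5 of 8 genes of phenylalanine and tyrosine catabolism were higher and 0 lower (median 0.73), with Qdpr up by 2.02 ± 0.25. Of 4 histidine genes 2 were higher and 1 lower (median 0.22). The hepatocyte markers moved with the condition as well, with 7 of 8 higher and 0 lower over both sexes and a median of 0.58 in males, 1.54 in females and 1.09 over both. In males 0 of the 8 were called, where 14.1% of all tested genes were higher and 15.4% lower. In females 6 were higher and 0 lower, against 29.8% and 26.0%. The summed level of these markers per kilobase ran from 173638 to 439469 in GF males, 365646 to 512676 in CV males, 64418 to 221147 in GF females and 368916 to 551832 in CV females. Its part in the changes of the 10 genes was not tested.

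Markers of other cells were counted beside them over both sexes, against the same 32.3% of all tested genes higher and 28.7% lower. Lymphocyte markers were lower for 6 of 6 tested genes, with summed levels of 149 to 232 per kilobase in GF and 38.2 to 63.7 in CV. Blood cell markers were lower for 4 of 5 (3541 to 43005 in GF and 1101 to 3902 in CV). Macrophage markers were higher for 5 of 8 and lower for 0, with Vsig4, Cd5l and Lyz2 called in each sex. Sinusoidal endothelial markers were lower for 2 of 6, stellate cell markers higher for 1 and lower for 1 of 6, and 0 of 5 bile duct markers passed (limma; 0 of them at an unadjusted p of 0.05). Of the exocrine pancreas list only Cela1 was tested, and it was higher. The part of these markers in the changes of the 10 genes was not tested.

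**Figure D5:**
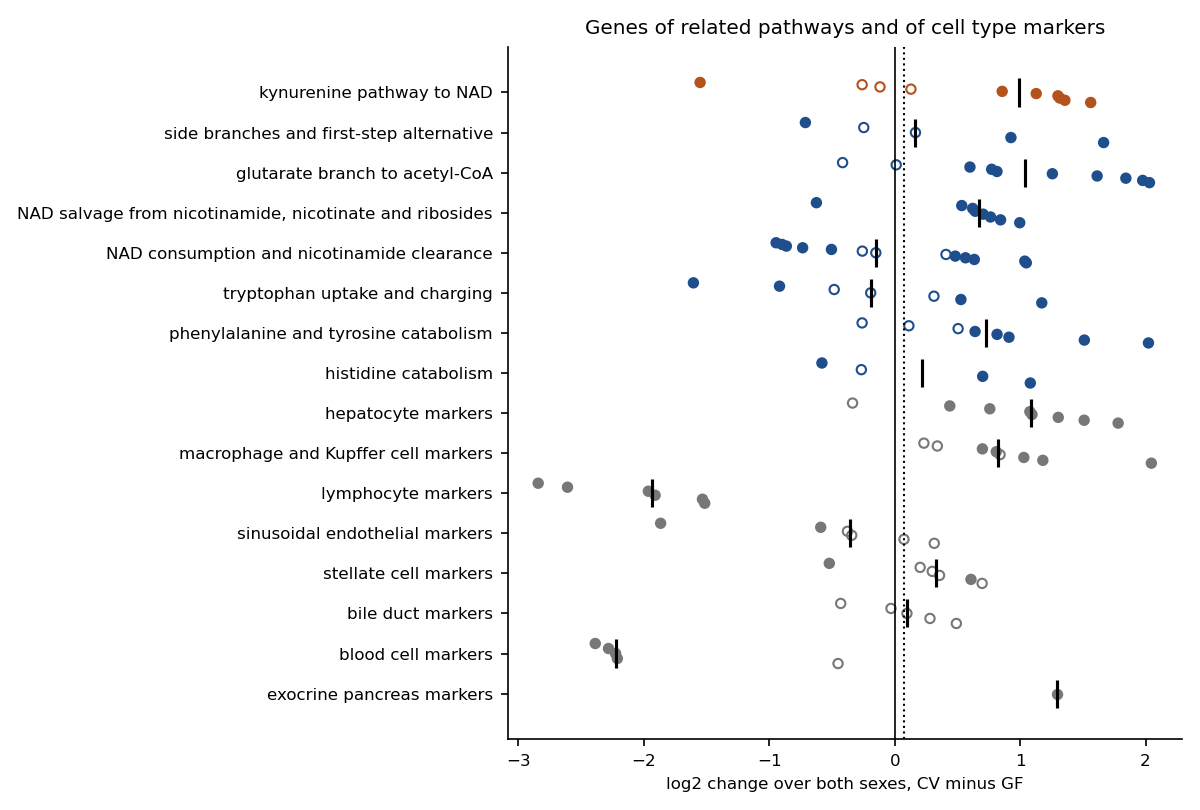
Log2 change over both sexes (CV minus GF, x axis) of the tested genes of the route (orange), of 7 other pathway lists (blue) and of cell type markers (grey). Filled points have an adjusted p under 0.05, black bars are list medians and the dotted line is the median of all tested genes (0.07). The route's median of 0.99 lies beside that of the hepatocyte markers, 1.09.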

How the data were processed

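Liver RNA was sequenced from 12 mice with a stranded mRNA kit, per the labels. The submitters' processing notes name HTSeq 0.6.1p1, DESeq2 and build GRCm38, while the aligner, the annotation release and the strand setting are not given in the sources used here. The deposited signal per gene is the authors' read count divided by 1 size factor per library: divided by the worth of 1 read, 100% of them came out whole within 0.01 reads, and the factors equalled the DESeq2 median of ratios recomputed over 12512 genes.

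Groups came from the sample titles. The 10 pathway genes, the other gene lists and the tests were chosen with earlier results of these data known. The 10 genes were named whatever their values, and of each other pathway list up to 3 genes called in the same direction in both sexes. limma 3.58.1 in R 4.3.3 was fitted to log2(value + 1) of 11782 genes with a mean value of at least 10, which understates the change of low genes. The fit used all 12 libraries, 1 mean per group, a variance trend and Benjamini-Hochberg adjustment at 0.05. Ratios were tested by an exact two-sided permutation test. Coordinates, exon lengths and overlaps came from GENCODE release 21 of mouse on GRCm38, and promoters from RefSeq. The promoter of 1 gene of the route and 1 other pathway list, apart from 1 of its genes, are not reported here. The tests were checked on simulated data.

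Alternatives were edgeR 4.0.16 and DESeq2 1.42.0 on the recovered reads, other pseudocounts, filters, scalings, covariates and thresholds, removal of a trend on length and GC content, each library left out, and a replicate block. On the recovered reads edgeR tested 12555 genes and called 3854 in males and 6852 in females. None of the 66 library pairs was alike within sampling noise. Replicate numbers come from the titles. Deviations from the group means of same-numbered libraries correlated at -0.23 to 0.02 between GF and CV, so these numbers do not pair the conditions. Between males and females they correlated at 0.12 to 0.19 in CV and at 0.06, 0.40 and 0.07 in GF. The main fit paired no libraries, and the replicate block was used only as an alternative.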

Additional observations from a re-analysis of the deposited data

How the results depend on the processing

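Over both sexes Ido2, Afmid, Aadat, Haao, Acmsd and Qprt kept their direction and their call in all 24 alternatives without a composition covariate, and Tdo2 in 23 of them, the exception being scaling to the reads outside the 9 abundant loci. Afmid and Acmsd rested on as few as 37 and 38 reads in a library. Where a value changed, the cause was not tested unless the alternative itself shows it.

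With a covariate for the reads taken by the 9 abundant loci, the genes called fell to 13 in males, 0 in females, 7 over both sexes and 9 between GF males and females, and those of the route to 0 in each. The log2 changes that reversed were, in males, Aadat -0.72, Haao -0.13, Ido2 -0.42, Qprt -1.003 and Tdo2 -0.49. In females they were Aadat -0.99, Haao -0.57, Ido2 -1.40, Kmo -2.04, Kynu -2.22, Qprt -1.54 and Tdo2 -1.48. Over both sexes they were Aadat -0.86, Haao -0.35, Ido2 -0.91, Kmo -1.76, Qprt -1.27 and Tdo2 -0.99. In the difference of the condition effect between the sexes they were Aadat 0.27, Haao 0.43, Ido2 0.98, Kmo 0.57, Kynu 0.57, Nadsyn1 0.91, Qprt 0.54 and Tdo2 0.99.

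With the mitochondrial ribosomal RNA share as covariate, 3 genes were called in males, 0 in females, 0 over both sexes, 1 for the difference between the sexes, 4 between GF males and females and 15 between CV males and females, with 0 of the route in the comparisons of condition and in GF. Reversed were, in males, Aadat -0.53, Ido2 -0.0425 and Qprt -0.20. In females these were Aadat -1.02, Afmid -1.01, Haao -0.18, Ido2 -0.98, Kmo -1.74, Kynu -2.93, Qprt -0.30 and Tdo2 -0.44. Over both sexes these were Aadat -0.77, Afmid -0.10, Ido2 -0.51, Kmo -1.45, Qprt -0.25 and Tdo2 -0.15. For the difference between the sexes these were Aadat 0.49, Haao 0.37, Ido2 0.94, Kmo 0.58, Kynu 1.15, Nadsyn1 1.67, Qprt 0.10 and Tdo2 0.57.

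Scaled to all reads, 11 genes were called for the difference between the sexes, 1393 between GF males and females and 17 between CV males and females, and of the route 7 in males and 4 between GF males and females. Kmo in males (0.10), Kynu over both sexes (0.44), Nadsyn1 in females (0.62) and over both (0.30) and the Acmsd difference between the sexes (-0.40) reversed. Scaled outside the loci, 4 genes were called between CV males and females, and 2 of the route in males and 0 between GF males and females. Kmo in females (-0.16) and over both (-0.34), Kynu in females (-0.43) and the differences between the sexes of Nadsyn1 (0.17) and Tdo2 (0.0889) reversed.

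DESeq2 called 24 genes for the difference between the sexes, 447 between GF males and females and 50 between CV males and females, and edgeR 30 (TMM) or 29 (RLE) for the last. The Nadsyn1 difference between the sexes reversed with DESeq2 (0.0592), edgeR TMM (0.0694), edgeR RLE (0.0827) and the length and GC trend removed (0.0865). Removing that trend also reversed Kynu over both sexes (0.21) and the ratio of Kmo to Kynu (-0.0450), and left 0 genes of the route between GF males and females. Without a filter 3 genes were called between CV males and females and 2 of the route in males; the pseudocounts 0.5 and 10 gave 4 and 14 genes for the former. At 0.01, 1390 genes passed in males, 55 between GF males and females and 3 between CV males and females, with 2 of the route in males and 0 in GF.

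With the replicate number as a block, 830 genes passed between GF males and females (2 of the route) and 24 between CV males and females, and 2 of the route passed in males, where Ido2 (0.94, adjusted p = 0.0724, limma) and Haao (0.98, 0.0707) were lost, as was Tdo2 in females (0.98, 0.0570). The ratios 1.17 (Aadat to Kmo), -3.11 (Acmsd to Qprt) and 2.87 (Haao to Acmsd) had an exact permutation p of 0.03125 when conditions were exchanged within same-numbered pairs, the smallest that 64 relabellings allow. Adjusted over the 5 ratios it was 0.0521 and did not pass. A lower adjusted value would have needed more of the 5 ratios at this smallest p. GF and CV libraries share only a number.

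Leaving out 1 library in turn gave 1604 (without GF male 1) to 3884 genes in males (2 to 6 of the route), 0 to 291 (without CV male 1) for the difference between the sexes (0 to 2), 49 to 716 between GF males and females (0 to 2) and 3 to 77 between CV males and females, the highest without CV male 3. Log2 values ranged from -0.68 to 0.11 for Nadsyn1 in females, -0.0661 to 0.23 for Kmo and -0.33 to 0.00289 for Kynu over both sexes, -0.0844 to 0.25 for Acmsd and -0.51 to 0.34 for Nadsyn1 in the difference between the sexes, 0.15 to 0.32 for Kmo to Kynu and -0.35 to -0.17 for Tdo2 to Ido2. Over all alternatives, 900 values of single genes kept their direction and side of the threshold, 48 kept their direction and lost a call, 16 gained a call and 76 changed direction.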
